A study of Mus musculus with 42 samples.

Results

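The 10 genes described here encode scavenger receptors and receptors typical of resident macrophages: Marco, Msr1, Cd5l, Siglec1, Mrc1, Stab1, Cd163, Cd68, Fcrls and Scarb1. They were chosen by name, taken by symbol from a count table of 37310 genes, and all 10 were among the 11624 genes with enough counts to be tested. Earlier results of these data were known when the list was made. Those that bore on the choice were the genotype differences of Marco, Cd5l and Siglec1 in these libraries. Genotype differences are therefore given below as levels and fold changes without a test. Treatment and time tests of Marco, Cd5l and Siglec1 use the same libraries, so their p-values are not free of that choice.

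Scavenger receptors are cell surface proteins of unrelated structure that bind modified lipoproteins, bacterial cell wall components, haemoglobin complexes, sugars or dying cells and bring them into the cell, mostly for breakdown in lysosomes. Resident macrophages of spleen, liver and other tissues are known for high levels of several of them, and these genes are widely used to describe macrophage states. Bacterial lipopolysaccharide (LPS) acts through Toll-like receptor 4 and switches on both inflammatory and interferon-dependent genes, while palmitate is a saturated fatty acid used to load macrophages with lipid.

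RNA was measured by ribodepleted total RNA sequencing in 42 libraries of bone-marrow-derived macrophages (BMDM), which had been grown from marrow of femur and tibia in medium conditioned by L929 cells. The libraries fall into 14 groups of 3, labelled WT or KO in each of 7 conditions. Control cells were taken at 0, 2 and 24 h, and cells given LPS or palmitate at 2 and 24 h. KO stands for animals with floxed Irf5 (interferon regulatory factor 5, a transcription factor) and LysM-Cre, a Cre recombinase inserted at Lyz2 and driven by the Lyz2 promoter, and WT for wild-type animals. Palmitate was given in an albumin solution, and whether Control cells received that vehicle is not stated. Levels are CPM, counts scaled to a common library size, given as mean ± SD of 3 libraries.

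Total counts lay between 2848793 and 7743442 per library, so that 3 counts corresponded to 0.387 to 1.05 CPM. The labels did not match the Irf5 counts: Irf5 ranged from 209.5 to 389 CPM under the label WT and from 267 to 431 CPM under KO, with the higher mean under KO in all 7 conditions. Counts over the whole gene can include reads from exons outside a floxed part, so this does not test the deletion, and KO is used below as the label of a library only. Lyz2, the gene that carries the Cre insertion, was lower in the libraries labelled KO in all 7 conditions. Each of the 8 macrophage markers was tested, and their summed level was 13120 to 23630 CPM in WT and 10030 to 14480 CPM in KO, a list that includes Cd68 and Lyz2. Summed levels of the 9 granulocyte precursor markers were 19.3 to 83.7 CPM in WT and 42.1 to 204 CPM in KO, and those of 4 fibroblast markers spanned 0 to 305 CPM. B cell markers summed to at most 12.99 CPM, endothelial ones to 11.3, dendritic ones to 10.2, T or NK cell ones to 1.90 and erythroid ones to 0.519 CPM. The part of these cells in the results below was not tested. LPS raised Tnf from 72.9 to 1988 CPM at 2 h in WT, and palmitate raised the lipid droplet gene Plin2 from 210 to 835 CPM at 24 h in WT.

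RefSeq start sites of 7 members were matched by symbol on GRCm38.p6, and the 250 bases upstream of 4 of them are shown because these genes moved in different directions under LPS, as described below: Marco rose, Cd5l and Stab1 fell, and Cd68 fell least. Each runs 5′ to 3′ on the strand of its gene. Capitals mark matches on either strand to TGACTCA, the AP-1 motif, or to GAGGAA, the core of the motif of PU.1, the main macrophage lineage factor.
Marco, chr1:120505025-120505274, minus strand: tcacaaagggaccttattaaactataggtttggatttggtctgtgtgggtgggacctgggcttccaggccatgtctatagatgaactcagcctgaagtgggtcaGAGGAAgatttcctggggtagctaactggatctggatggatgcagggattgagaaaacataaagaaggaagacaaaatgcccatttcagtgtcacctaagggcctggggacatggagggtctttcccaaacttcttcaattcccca
Cd5l, chr3:87357631-87357880, plus strand: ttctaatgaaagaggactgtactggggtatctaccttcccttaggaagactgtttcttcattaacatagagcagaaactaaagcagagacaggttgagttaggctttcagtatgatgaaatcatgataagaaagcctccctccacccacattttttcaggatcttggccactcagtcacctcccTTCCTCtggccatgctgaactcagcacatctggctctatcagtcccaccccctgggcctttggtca
Stab1, chr14:31168642-31168891, minus strand: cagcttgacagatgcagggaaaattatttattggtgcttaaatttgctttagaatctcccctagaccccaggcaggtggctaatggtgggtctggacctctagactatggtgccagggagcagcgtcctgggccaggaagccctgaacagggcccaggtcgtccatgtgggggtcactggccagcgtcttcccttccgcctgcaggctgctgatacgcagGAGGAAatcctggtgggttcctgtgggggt
Cd68, chr11:69666171-69666420, minus strand: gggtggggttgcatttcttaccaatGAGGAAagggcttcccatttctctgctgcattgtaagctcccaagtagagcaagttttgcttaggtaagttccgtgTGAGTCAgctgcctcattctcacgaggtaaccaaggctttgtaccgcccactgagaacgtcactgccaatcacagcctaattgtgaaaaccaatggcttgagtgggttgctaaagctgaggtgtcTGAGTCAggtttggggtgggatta

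The core GAGGAA, a motif added after the data had been seen, was found in 6 of the 7 matched member promoters. It was also found in 23.3% of 32851 RefSeq promoters of the same length. Its match began 146 bases upstream of the start of Marco, 66 upstream of Cd5l, 30 upstream of Stab1 and 225 upstream of Cd68. The longer motif GAGGAAGT, which contains that core, was found in 0 of the 7 and in 2.44% of all promoters. The AP-1 motif was found in Cd68 alone among the 7, at 149 and 24 bases upstream, and in 4.46% of all promoters. The core of the interferon-stimulated response element, GAAANNGAA, was found in 0 of the 7 and in 7.13% of all promoters. These counts describe letters in one window and say nothing about binding.

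Compared per kilobase of exon, the members spanned a wide range of levels. In WT Control at 24 h, Cd68, a lysosomal glycoprotein of all macrophages, had 534 CPM per kb of exon, followed by Cd5l with 417, Marco with 318 and Fcrls with 294. Stab1 had 120, Msr1 54.8, Mrc1 38.2, Siglec1 27.4 and Scarb1 14.1 CPM per kb of exon. Cd163, the receptor for haptoglobin and haemoglobin complexes, was near the floor with 0.440 CPM per kb and between 1 and 42 counts in any library. Of these markers of resident macrophages, Cd163 was thus close to absent from the cultures. Over the 14 group means, Mrc1 varied 11.7-fold, Cd163 9.92-fold, Marco 8.74-fold and Siglec1 7.48-fold. Cd5l varied 3.05-fold, Stab1 3.01-fold and Scarb1 2.62-fold, whereas Msr1, Fcrls and Cd68 each varied less than 2.0-fold (1.93, 1.89 and 1.88). The median coefficient of variation within groups was 3.99% to 10.8% for 9 of the members and 35.8% for Cd163.

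**Figure D1:**
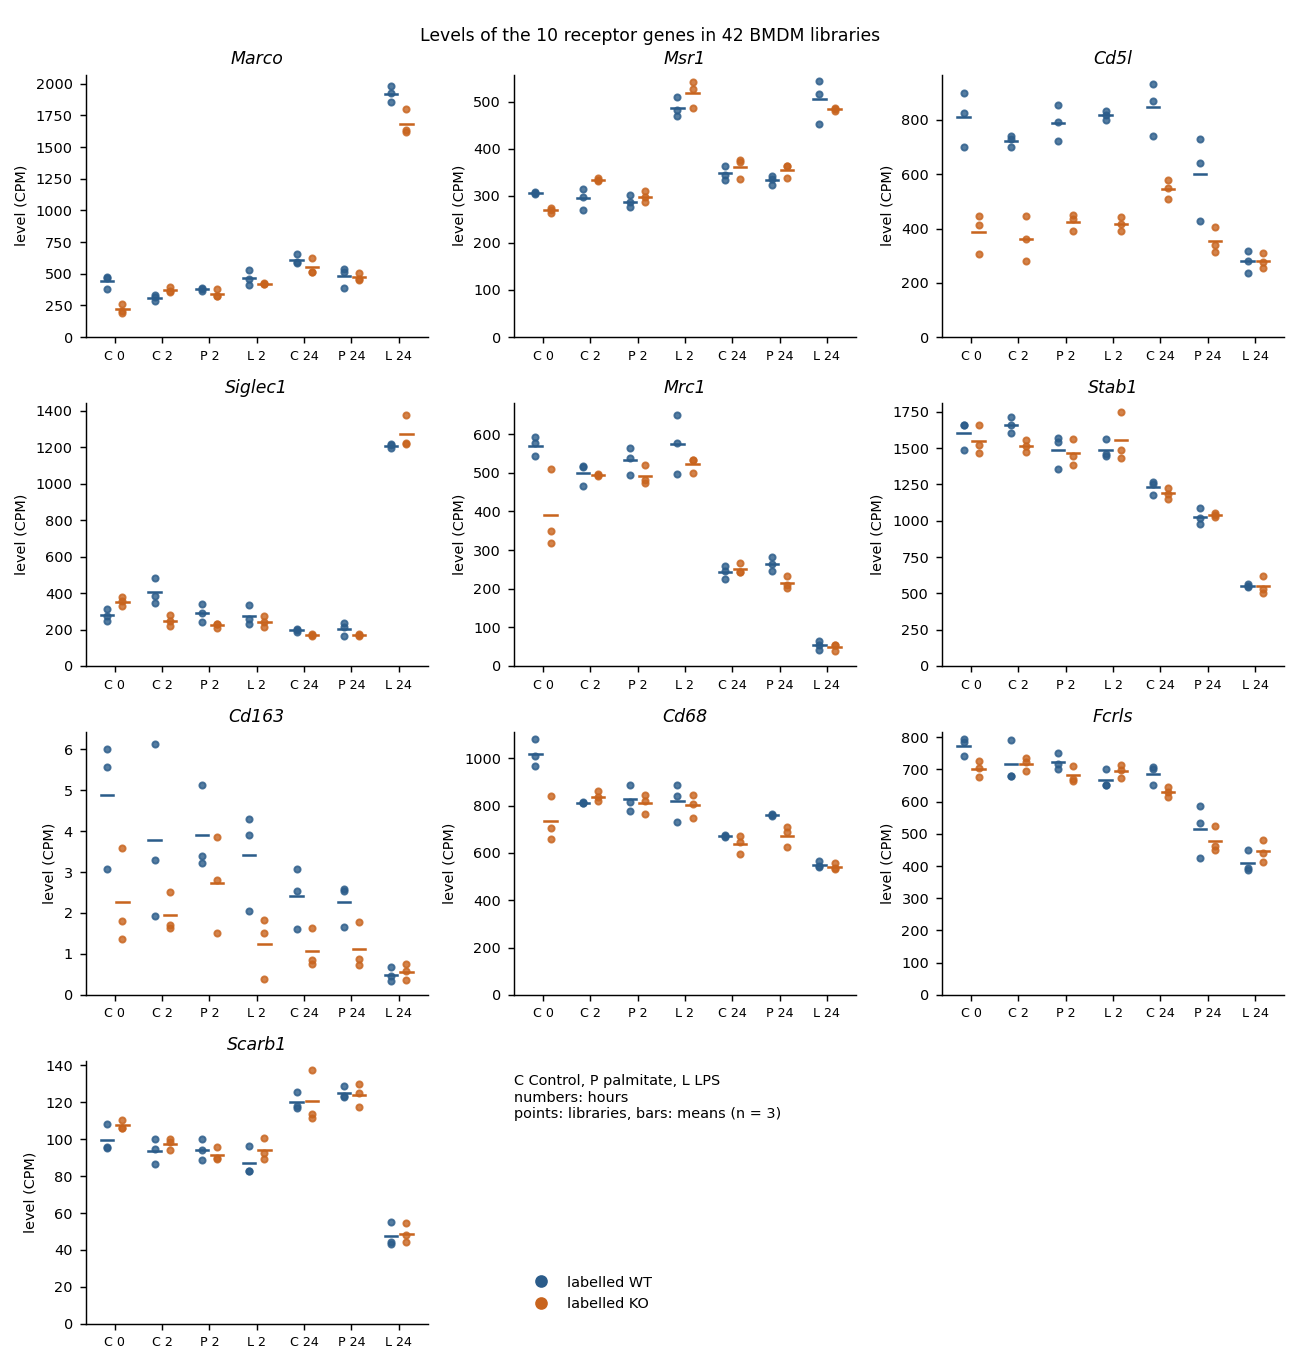
Levels (CPM, vertical axis from 0) of the 10 genes in the 42 libraries, by condition (C Control, P palmitate, L LPS, with hours), with WT in blue and KO in orange; points are libraries and bars are means of 3. Within their own panels Siglec1 and Marco have their highest group mean under LPS at 24 h, and Mrc1, Stab1, Scarb1, Cd5l, Fcrls, Cd68 and Cd163 their lowest, while the 3 blue and 3 orange points of Cd5l separate in every other condition.

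The first comparison asked how the receptors responded to LPS at 24 h, against Control of the same time and label. All 10 members changed in WT, where 3 rose (Siglec1, Marco and Msr1) and 7 fell. In KO, 3 rose and 6 fell. Of all genes tested, 19.6% rose and 19.9% fell in WT, and 19.9% rose and 21% fell in KO. The median log2 fold change of the members was -0.95 in WT and -0.69 in KO, beside -0.01 and -0.01 over all genes tested. A lower level in bulk RNA can reflect fewer cells of a type or less RNA per cell, and the 2 cannot be told apart here.

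Siglec1 encodes sialoadhesin, a lectin that binds sialic acids and is known as an interferon-induced gene. It had 201, 199 and 187 CPM in the 3 libraries of WT Control at 24 h and 1196, 1216 and 1212 CPM after LPS. In the libraries labelled KO it had 164, 175 and 173 CPM in Control and 1219, 1380 and 1222 CPM after LPS. The groups were far apart under both labels. Siglec1 rose by 2.63 on the log2 scale in WT (SE 0.12, adjusted p = 5.8e-25 in edgeR) and by 2.90 in KO (SE 0.12, adjusted p = 1.4e-26).

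Marco and Msr1 are class A scavenger receptors, trimers with a collagen-like stalk that bind bacteria and modified lipoproteins. Marco had 654, 589 and 592 CPM in WT Control and 1853, 1928 and 1983 CPM after 24 h of LPS. The KO libraries had 625, 514 and 515 CPM in Control and 1616, 1634 and 1801 CPM after LPS. Every LPS library stood above every Control library, with log2 fold changes of 1.65 (SE 0.10, adjusted p = 3.0e-20) in WT and 1.61 (SE 0.10, adjusted p = 7.7e-20) in KO. Msr1 rose less, from 348 ± 15.3 to 505 ± 46.4 CPM in WT and from 361 ± 21.5 to 484 ± 3.59 CPM in KO. Its log2 fold changes were 0.54 (SE 0.06, adjusted p = 1.2e-10) and 0.43 (SE 0.06, adjusted p = 5.1e-08).

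Mrc1, the mannose receptor that internalises glycoproteins and is a common marker of alternative activation, fell the most among the abundant members. It had 258, 226 and 245 CPM in WT Control and 53.7, 42.5 and 65.4 CPM after LPS. In KO it had 244, 244 and 267 CPM in Control and 39.96, 53.6 and 54.0 CPM after LPS. The log2 fold changes were -2.17 (SE 0.12, adjusted p = 7.9e-21) and -2.36 (SE 0.12, adjusted p = 3.4e-22), with no overlap of the groups. The gene also holds Mir511 in its body, whose reads were nearly absent (0.119 counts per library on average).

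Stab1 encodes stabilin-1, an endocytic receptor for acetylated lipoproteins and matrix fragments. It fell from 1265, 1180 and 1255 CPM to 552, 543 and 563 CPM in WT and from 1186, 1150 and 1226 CPM to 532, 619.8 and 502 CPM in KO. Its log2 fold changes were -1.16 (SE 0.07, adjusted p = 3.9e-20) and -1.11 (SE 0.07, adjusted p = 2.0e-19). Stab1 shares 112 exon bases with Nt5dc2 on the other strand, and as the strand setting of the counting is not stated, reads there cannot be assigned. The mean count of Nt5dc2 was 370.0 per library and that of Stab1 was 7108.

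Scarb1, the high-density lipoprotein receptor, fell from 120.2 ± 4.57 to 47.7 ± 6.58 CPM in WT and from 121 ± 14.6 to 48.9 ± 5.14 CPM in KO. The log2 fold changes were -1.34 (SE 0.09, adjusted p = 3.2e-18) and -1.30 (SE 0.09, adjusted p = 6.3e-18). The 2 labels thus ended at nearly the same level of Scarb1 as well as of Stab1.

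Cd5l encodes a secreted protein with scavenger receptor cysteine-rich domains that is made by resident macrophages and binds lipids and microbial products. It had 872, 933 and 741 CPM in WT Control at 24 h and 281, 236 and 319 CPM after LPS. Libraries labelled KO had 551, 579 and 509 CPM in Control and 255, 311 and 276 CPM after LPS. Control levels differed between the labels, while LPS levels overlapped. Cd5l fell by 1.61 on the log2 scale in WT (SE 0.13, adjusted p = 1.2e-14) and by 0.96 in KO (SE 0.13, adjusted p = 3.2e-08). Its position is close to that of Fcrls, the Fc receptor-like scavenger receptor, with 94142 bases between the 2 genes on chromosome 3. Fcrls fell from 687 ± 29.5 to 410.1 ± 35.6 CPM in WT (log2 fold change -0.74, SE 0.07, adjusted p = 6.0e-12) and from 630.0 ± 15.6 to 446 ± 34.3 CPM in KO (-0.50, SE 0.07, adjusted p = 1.8e-07).

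Cd68 fell least, from 671 ± 4.34 to 550.0 ± 14.1 CPM in WT and from 637 ± 37.3 to 542 ± 12.4 CPM in KO. The log2 fold changes were -0.29 (SE 0.07, adjusted p = 0.00049) and -0.23 (SE 0.07, adjusted p = 0.0040). Cd163 had 9, 18 and 11 counts in WT Control and 4, 2 and 3 counts after LPS, and 3, 9 and 6 against 5, 2 and 4 counts in KO. Its log2 fold change was -2.23 in WT (SE 0.59, adjusted p = 0.0018) and -0.88 in KO (SE 0.63, adjusted p = 0.28, not called). With so few counts the ratio of the summed counts per depth carries a wide interval, 0.201 (95% exact interval 0.0854 to 0.422) in WT and 0.51 (0.218 to 1.14) in KO, which covers counting error only. The summed level of 4 cell cycle genes was 93.8 to 121 CPM in the LPS 24 h libraries and 304 to 364 CPM in the Control 24 h libraries, and its part in these changes was not tested. All 19 calls at this time kept their side of the threshold when any single library was left out.

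At 2 h of LPS, few members had changed. In WT, 2 rose (Msr1 and Marco) and 1 fell (Siglec1), where 14% of all genes tested rose and 9.1% fell. In KO, 1 rose and 0 fell, beside 14.7% and 9.16% of all genes. The median log2 fold change of the members was -0.04 in WT and -0.00 in KO, beside -0.01 and -0.01 over all genes. Msr1 was the only member called under both labels. It had 298, 270.3 and 314 CPM in WT Control at 2 h and 509.8, 470.0 and 481 CPM after LPS. The KO libraries had 332, 333 and 338 CPM against 526, 487 and 542 CPM, and the groups did not overlap under either label. Its log2 fold changes were 0.72 (SE 0.06, adjusted p = 3.1e-14) and 0.63 (SE 0.06, adjusted p = 2.2e-12).

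Marco had 317, 288 and 329 CPM in WT Control at 2 h and 457, 413 and 526 CPM after LPS, and rose by 0.58 on the log2 scale (SE 0.10, adjusted p = 5.6e-06). In KO its log2 fold change was 0.18 (SE 0.10, adjusted p = 0.21), from 374 ± 20.7 to 423 ± 6.73 CPM. In WT, Siglec1 moved in the opposite sense to its change at 24 h. It had 383, 485 and 343 CPM in WT Control at 2 h against 232, 337 and 259.6 CPM after LPS, and fell by 0.54 on the log2 scale (SE 0.11, adjusted p = 0.00020). Libraries labelled KO had 278, 219.5 and 248 CPM against 274, 214 and 239 CPM, with overlapping groups (log2 fold change -0.04, SE 0.12, adjusted p = 0.84). Means of Siglec1 in Control at 0 h, Control at 2 h and LPS at 2 h were 277, 404 and 276 CPM in WT and 353, 248 and 243 CPM in KO. For Marco they were 440, 311 and 465 CPM in WT and 220, 374 and 423 CPM in KO. The part of the Control change over 2 h in these LPS differences was not tested. Control libraries at 2 h also enter the genotype differences that bore on choosing Marco and Siglec1, which limits the p-values of these genes here. The other 7 members had log2 fold changes between -0.18 and 0.21 in WT and between -0.51 and 0.20 in KO, none of them called. The summed cell cycle genes stood at 643 to 983 CPM in these libraries against 239 to 396 CPM in Control at 2 h.

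The difference between the late and the early LPS effect was then tested itself. In WT it was called for 9 members, 2 of them with a higher and 7 with a lower effect at 24 h, where 14.5% of all genes were higher and 18.1% lower. In KO, 2 were higher and 5 lower, beside 14.3% and 19% of all genes. Siglec1 differed by 3.17 (SE 0.16) in WT and 2.94 (SE 0.16) in KO on the log2 scale. Mrc1 differed by -2.37 (SE 0.16) and -2.44 (SE 0.16), and Cd5l by -1.78 (SE 0.18) and -1.16 (SE 0.19). Msr1 was the only member called under neither label, with -0.19 (SE 0.09, adjusted p = 0.092) and -0.21 (SE 0.09, adjusted p = 0.056), although RLE scaling and DESeq2 each called the KO value. The WT values of Cd163 (-2.04) and Cd68 (-0.30) lost their call when single libraries were left out.

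Palmitate moved fewer members and by less. At 24 h in WT, 3 members fell and 0 rose, and in KO 2 fell and 0 rose. Of all genes, 0.181% fell and 0.671% rose in WT, and 0.241% fell and 0.637% rose in KO. Fcrls had 701, 706 and 653 CPM in WT Control at 24 h and 585, 424 and 533 CPM after palmitate. Libraries labelled KO had 629.5, 646 and 615 CPM in Control and 463, 525 and 449.9 CPM after palmitate. No library of one group reached the other, with log2 fold changes of -0.42 (SE 0.07, adjusted p = 0.00053) and -0.40 (SE 0.07, adjusted p = 0.0011).

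Cd5l, the neighbour of Fcrls, had 729, 429 and 640.0 CPM after palmitate in WT against 872, 933 and 741 CPM in Control (log2 fold change -0.50, SE 0.13, adjusted p = 0.039). The KO values were 339, 405 and 315 CPM against 551, 579 and 509 CPM (log2 fold change -0.63, SE 0.13, adjusted p = 0.0048). The second WT palmitate library was the lowest of its group for Cd5l, Fcrls, Marco, Siglec1, Msr1, Mrc1 and Cd163, and the highest for Stab1 and Cd68. Without it the WT difference of Cd5l was -0.31 and no longer called, and leaving out WT Control library 1 or 2 or WT palmitate library 3 also ended the call, as did DESeq2. In KO the call of Cd5l ended without Control library 2 (-0.58) or palmitate library 3 (-0.55). The 2 calls of Fcrls held whichever library was left out.

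Stab1 fell under palmitate in WT, from 1233 ± 46.8 to 1027 ± 55.4 CPM (log2 fold change -0.26, SE 0.07, adjusted p = 0.036), and this call ended when any one of 5 libraries was left out (all 3 of Control, and palmitate 1 and 3). Its KO levels were 1187 ± 37.6 and 1040.0 ± 15.3 CPM (-0.19, SE 0.07, adjusted p = 0.27). Marco had lower levels in every palmitate library than in any Control library under both labels, with log2 fold changes of -0.35 (SE 0.10, adjusted p = 0.070) and -0.22 (SE 0.10, adjusted p = 0.52) that were not called. A separate fit with the libraries compared called both values of Marco. Its WT value was also called with no filter beyond 1 count, without palmitate library 1 and in the fit without Control 0 h. Cd68 had 671 ± 4.34 CPM in Control and 759.9 ± 4.84 CPM after palmitate in WT (0.18, SE 0.07, adjusted p = 0.30).

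At 2 h of palmitate, 1 member fell in WT and 0 rose, beside 0.172% and 0.103% of all genes. The member was Siglec1, with 241, 291 and 338 CPM after palmitate and 383, 485 and 343 CPM in Control (log2 fold change -0.48, SE 0.11, adjusted p = 0.041). This comparison and that of LPS at 2 h share their Control libraries, of which the second stood highest, and without that library the value was -0.32 and not called. These Control libraries also enter the genotype difference of Siglec1 that bore on its choice, which limits the p-value. The call also ended without WT Control library 1 or palmitate library 1 or 2, and under DESeq2. In KO, 0 members rose or fell in edgeR and 0 in DESeq2, beside 0.0774% and 0.0344% of all genes. Msr1 alone passed an unadjusted threshold of 0.05 (log2 fold change -0.16, SE 0.06).

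**Figure D2:**
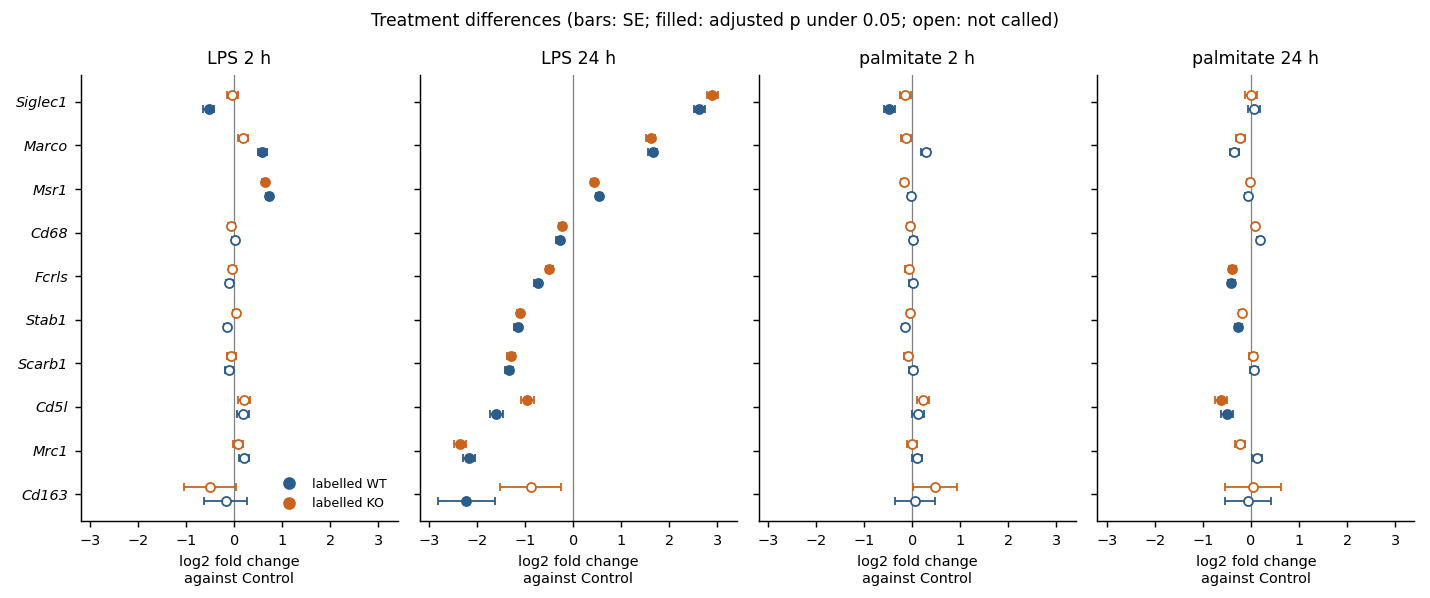
Log2 fold change of each gene against Control of the same time and label (horizontal axis) in 4 panels, WT in blue and KO in orange; bars are SE, and filled points have an adjusted p under 0.05. The LPS 24 h panel spans from -2.36 (Mrc1, KO) to 2.90 (Siglec1, KO), whereas the called points of the palmitate panels lie between -0.63 and -0.26.

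Control cells also changed with time in culture. Averaged over both labels, 4 members rose and 6 fell between 0 and 24 h, where 7.9% of all genes rose and 8.62% fell. The median log2 fold change of the members was -0.27, beside 0.01 over all genes. Marco rose by 0.90 on the log2 scale (SE 0.07, adjusted p = 2.0e-14) and Msr1 by 0.30 (SE 0.04, adjusted p = 4.9e-07). Mrc1 fell by 0.94 (SE 0.08, adjusted p = 6.6e-14), Siglec1 fell by 0.77 (SE 0.08, adjusted p = 2.4e-10) and Cd68 fell by 0.41 (SE 0.05, adjusted p = 4.0e-09). Stab1 fell by 0.38, Scarb1 rose by 0.22, and these 7 calls held without any single library. The calls of Cd163 (-1.05), Cd5l (0.28) and Fcrls (-0.17) each ended without 1 of several libraries, and that of Cd5l also under DESeq2. Among the 7 members other than Marco, Cd5l and Siglec1, 2 rose and 3 fell within WT, and 1 rose and 3 fell within KO. In WT 5.72% of all genes rose and 6.42% fell, and in KO 3.71% rose and 4.46% fell.

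Over the first 2 h in Control few members were called. Averaged over both labels, Msr1 alone was (0.13, SE 0.04, adjusted p = 0.034), where 9.35% of all genes rose and 7.36% fell. This call ended without any one of 7 libraries, and in WT alone the value was -0.058. Contrasts within a label were added after the data had been seen, and for Marco, Cd5l and Siglec1 they are given without a test, since they hold the values whose genotype differences bore on the choice of these genes. Marco had 475, 376 and 469 CPM at 0 h and 317, 288 and 329 CPM at 2 h in WT (log2 fold change -0.50, SE 0.10). In KO it had 204, 264 and 191 CPM at 0 h and 359, 398 and 367 CPM at 2 h (0.77, SE 0.10). Neither label had overlapping groups, and the values lay on opposite sides of 0.

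Siglec1 had 273, 314 and 245 CPM at 0 h and 383, 485 and 343 CPM at 2 h in WT, and 356, 327 and 376 against 278, 219.5 and 248 CPM in KO. Its log2 fold changes were 0.54 (SE 0.11) and -0.51 (SE 0.11), each of the opposite sign to that of Marco. Of the 7 members that were tested within a label, 0 rose and 1 fell in WT, beside 8.41% and 5.85% of all genes, and 2 rose and 0 fell in KO, beside 6.5% and 5.59%. Cd68 fell by 0.33 in WT (SE 0.07, adjusted p = 0.00025), and its value in KO was 0.19 (SE 0.07, adjusted p = 0.055). In KO, Msr1 rose by 0.31 (SE 0.06, adjusted p = 0.00018) and Mrc1 by 0.33 (SE 0.10, adjusted p = 0.025). The difference between the labels in these time courses is the same quantity as the change of their genotype difference, and was not tested for that reason.

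**Figure D3:**
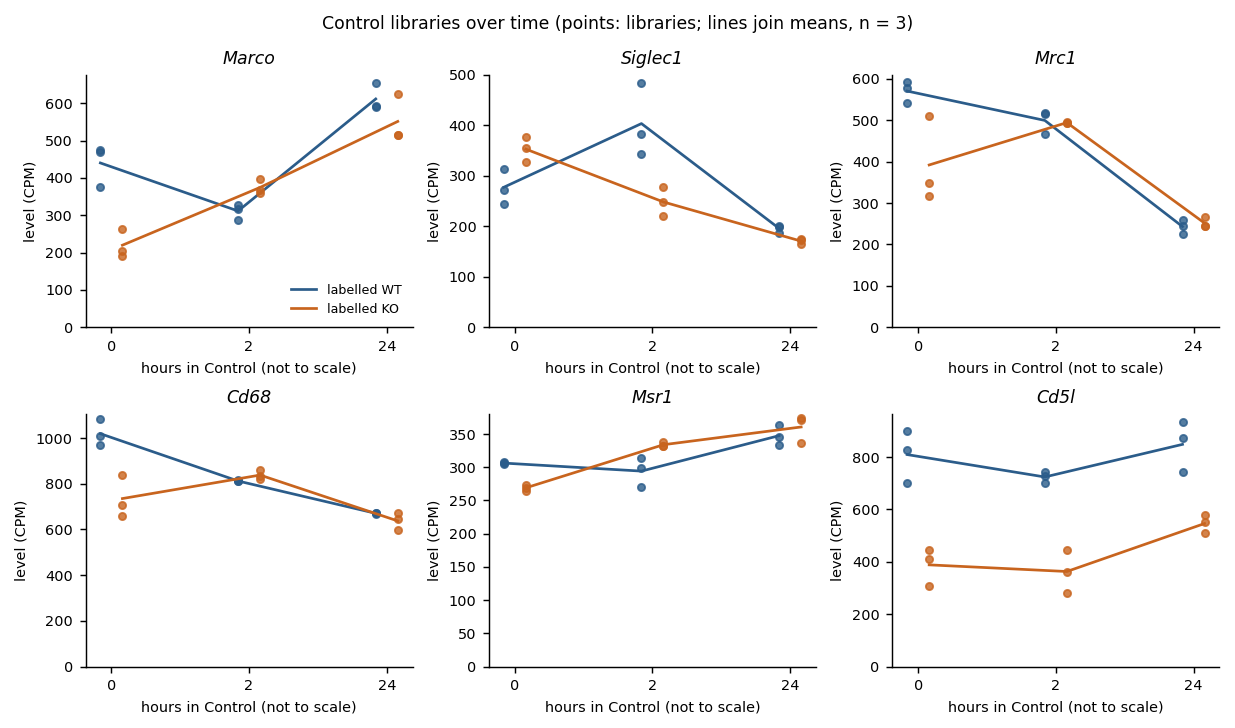
Levels (CPM, vertical axis from 0) of 6 genes in Control libraries at 0, 2 and 24 h (spacing not to scale), WT in blue and KO in orange; points are libraries and lines join means of 3. The lines of Marco, Siglec1, Msr1 and Cd68 cross between 0 and 2 h, and those of Cd5l do not cross.

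The genotype differences are given as a description. Cd5l showed the most regular one: it was lower in every KO library than in any WT library in 6 of the 7 conditions. Its log2 fold changes of KO against WT were -1.06 at 0 h, -1.0 at 2 h and -0.64 at 24 h in Control, -0.89 and -0.77 for the 2 times of palmitate and -0.97 under LPS at 2 h (SE 0.13 each). Under LPS at 24 h it was 0.01 (SE 0.13), with overlapping groups. Cd163 was lower in KO by its mean in the same 6 conditions, with values of -1.27 to -0.53 and SE of 0.43 to 0.53, where the groups overlapped in all but LPS at 2 h. The KO means of Marco, Mrc1 and Cd68 were also lower in 6 conditions. Outside Control at 0 h these values were small, between -0.19 and -0.02 for Marco, -0.30 and -0.01 for Mrc1 and -0.17 and -0.02 for Cd68. Siglec1 had a lower KO mean in 5 conditions, by -0.70 to -0.19.

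In Control at 0 h, 1 member was higher and 6 were lower in KO without overlap, beside 28% of all genes whose groups did not overlap in either direction. The 1 higher was Siglec1, and Marco and Cd5l were among the 6 lower. Genotype differences of these genes bore on the choice of the list, so the share of all genes is no background for the count. Marco had 475, 376 and 469 CPM in WT and 204, 264 and 191 CPM in KO (log2 fold change -1.0, SE 0.10). Mrc1 had 577, 542 and 592 CPM in WT and 348, 509.9 and 318 CPM in KO (-0.54, SE 0.10). Cd68 had 1082, 1008 and 968 CPM in WT and 706, 840.4 and 659.6 CPM in KO (-0.47, SE 0.07). The second KO library stood nearest to WT for all 3 of these genes. In Control at 2 h, 6 members did not overlap, 3 in each direction, beside 16.9% of all genes, and Marco was then higher in KO (0.27, SE 0.10) and Siglec1 lower (-0.70, SE 0.11). Cd5l was lower as well, so the same limit holds for this count.

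In the remaining conditions 2 or 3 members did not overlap. These were 2 under palmitate at 2 h (16.1% of all genes), 2 under LPS at 2 h (12.8%), 3 in Control at 24 h (11.6%), 3 under palmitate at 24 h (12.5%) and 2 under LPS at 24 h (13.4%). The 2 under palmitate at 2 h were Cd5l and Siglec1, and the 2 under LPS at 24 h were Marco and Siglec1. Cd5l was also among those of LPS at 2 h and of Control and palmitate at 24 h. The limit of choice given above holds for these counts too. Fcrls and Scarb1 lay within -0.14 and 0.12 on the log2 scale in every condition. Granulocyte precursor markers and fibroblast markers moved with the label in part. In Control at 0 h their sums were 47.2 to 55.3 and 0.397 to 0.905 CPM in WT and 73.4 to 81.7 and 41.6 to 68.7 CPM in KO, and their part in the genotype differences was not tested.

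**Figure D4:**
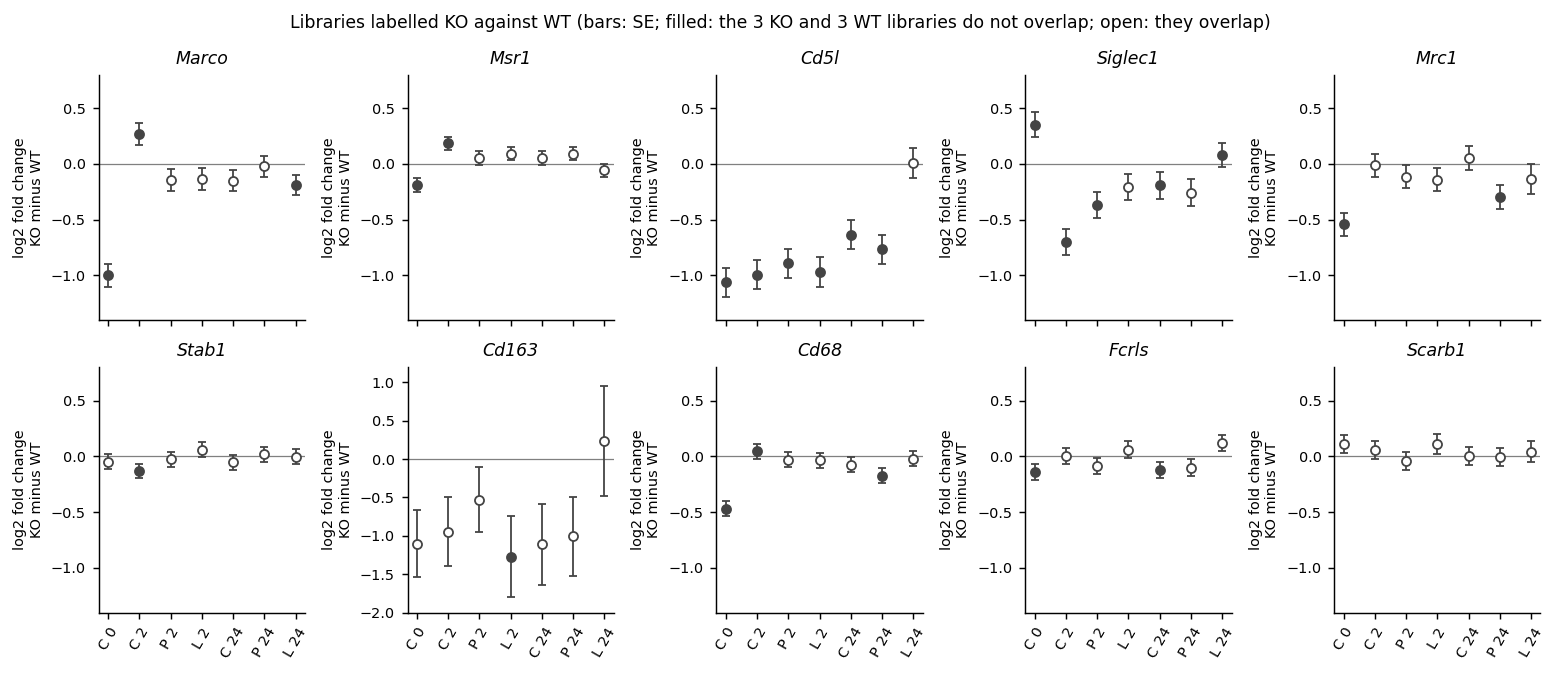
Log2 fold change of KO against WT (vertical axis) in the 7 conditions, 1 panel per gene; bars are SE, filled points have 3 KO and 3 WT libraries that do not overlap, and no test was applied. Cd5l lies below 0 in 6 conditions and at 0.01 under LPS at 24 h, and Marco lies at -1.0 in Control at 0 h and at 0.27 in Control at 2 h.

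Whether a treatment effect differed between the labels was tested for the 7 members other than Marco, Cd5l and Siglec1. In edgeR, 0 of 7 were called for LPS at 2 h, LPS at 24 h, palmitate at 2 h or palmitate at 24 h, and DESeq2 also called 0 of 7 in each. Among all genes 0% were called for LPS at 2 h, 0.0086% for LPS at 24 h, and 0% for each palmitate time. The unadjusted threshold of 0.05 was passed by Stab1 at LPS 2 h (0.19, SE 0.09), Fcrls at LPS 24 h (0.24, SE 0.11) and Mrc1 at palmitate 24 h (-0.35, SE 0.15). The adjusted p-values of these 7 members were 0.71 or higher. For the members left untested, the LPS 24 h effect in KO minus that in WT was 0.64 (SE 0.19) for Cd5l, 0.27 (SE 0.16) for Siglec1 and -0.04 (SE 0.13) for Marco. For LPS at 2 h it was 0.03 (SE 0.19), 0.49 (SE 0.16) and -0.41 (SE 0.14) in the same order. For palmitate it was 0.10 (SE 0.18), 0.33 (SE 0.16) and -0.41 (SE 0.14) at 2 h. At 24 h of palmitate it was -0.13 (SE 0.18), -0.06 (SE 0.17) and 0.13 (SE 0.14).

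Other genes of these classes came from 2 further lists, one of scavenger receptors and one of resident macrophage genes. Of 17 other scavenger receptors, 10 were tested. At 24 h of LPS, 3 rose and 5 fell in WT, beside 19.6% and 19.9% of all genes, and 3 rose and 4 fell in KO, beside 19.9% and 21%. Cxcl16, which as a membrane protein binds oxidised lipoproteins, rose from 189 to 511 CPM in WT and from 189 to 502 CPM in KO. Scarf1, an endothelial-type scavenger receptor, rose from 47.4 to 95.1 and from 50.8 to 98.5 CPM. The fall was largest for Colec12, a scavenger receptor with a lectin domain (log2 fold change -1.72 in WT and -1.57 in KO), Lrp1, the large endocytic receptor (-1.66 and -1.42), and Clec7a, the beta-glucan receptor dectin-1 (-1.61 and -2.01).

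At 2 h of LPS, 3 of these receptors rose under each label and 0 fell, beside 14% and 9.1% of all genes in WT and 14.7% and 9.16% in KO. The 3 were Olr1, Cxcl16 (log2 fold change 0.67 in WT and 0.68 in KO) and Scarf1 (0.39 and 0.38). Olr1, the receptor of oxidised low-density lipoprotein, had 2.66 CPM in WT Control at 2 h and 110.5 CPM after LPS, and 1.93 and 117 CPM in KO. By 24 h it had 1.94 CPM in WT and 1.87 CPM in KO under LPS. Its means in Control at 24 h were 0.154 CPM in WT and 0.815 CPM in KO. No library there had more than 2 counts in WT or 7 in KO, so no fold is given for that time. Under palmitate at 24 h, 2 of these receptors rose in WT and 0 fell, beside 0.671% and 0.181% of all genes, and 2 rose and 1 fell in KO, beside 0.637% and 0.241%. Cd36, the fatty acid and lipoprotein receptor, rose from 1740.0 to 2370.0 CPM in WT and from 1645 to 2161 CPM in KO. Scarb2, a lysosomal membrane protein of the Cd36 family, rose by 0.76 (SE 0.06) in WT and 0.64 (SE 0.06) in KO on the log2 scale. Scarb1 of the same family had 0.05 (SE 0.08) and 0.04 (SE 0.08), not called. Clec7a fell by 0.42 in KO (SE 0.08, adjusted p = 0.0021), and its value in WT was -0.18 (SE 0.08, adjusted p = 0.49). At 2 h of palmitate Scarb2 rose by 0.26 in WT (SE 0.06, adjusted p = 0.044) and was the only one of these receptors called under either label. Between 0 and 24 h in Control, Lrp1 rose by 0.34, and Cd36 and Scarb2 fell by 0.34 and 0.17 on the log2 scale.

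Of 19 other resident macrophage genes, 16 were tested, and at 24 h of LPS 8 rose and 8 fell under each label, where 19.6% and 19.9% of all genes did so in WT and 19.9% and 21% in KO. Those with the largest rise were Nr1h3, the liver X receptor alpha (2.06 in WT and 2.30 in KO on the log2 scale), Axl, a receptor for dying cells (1.47 and 1.82), and Spic, a factor of iron-recycling macrophages (1.47 and 1.37). Vsig4, a complement receptor of resident macrophages, had 4.53 CPM in WT Control and 0.659 CPM after LPS, and 3.93 and 0.407 CPM in KO. Id3, a transcriptional regulator needed by liver macrophages, fell by 2.47 and 2.63, and Gas6, the ligand of Axl, fell by 2.24 and 1.94 on the log2 scale. The genes of resident macrophages thus moved in both directions, as did the members.

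Fewer of these genes moved elsewhere. At 2 h of LPS, 2 rose and 4 fell in WT, beside 14% and 9.1% of all genes. In KO, 3 rose and 4 fell, beside 14.7% and 9.16%. Spic rose by 2.20 and 2.32 on the log2 scale. Under palmitate at 24 h, 0 were called in WT with edgeR (3 had an unadjusted p under 0.05), and 1, Gas6, fell in KO (log2 fold change -0.31). Of all genes, 0.671% rose and 0.181% fell in WT, and 0.637% rose and 0.241% fell in KO. Between 0 and 24 h in Control, 5 rose and 8 fell, beside 7.9% and 8.62% of all genes. Id3 rose by 1.62, Cx3cr1, the fractalkine receptor, by 0.71 and Nr1h3 by 0.42, while Gas6, C1qb and C1qa fell by 0.70, 0.53 and 0.48 on the log2 scale.

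**Figure D5:**
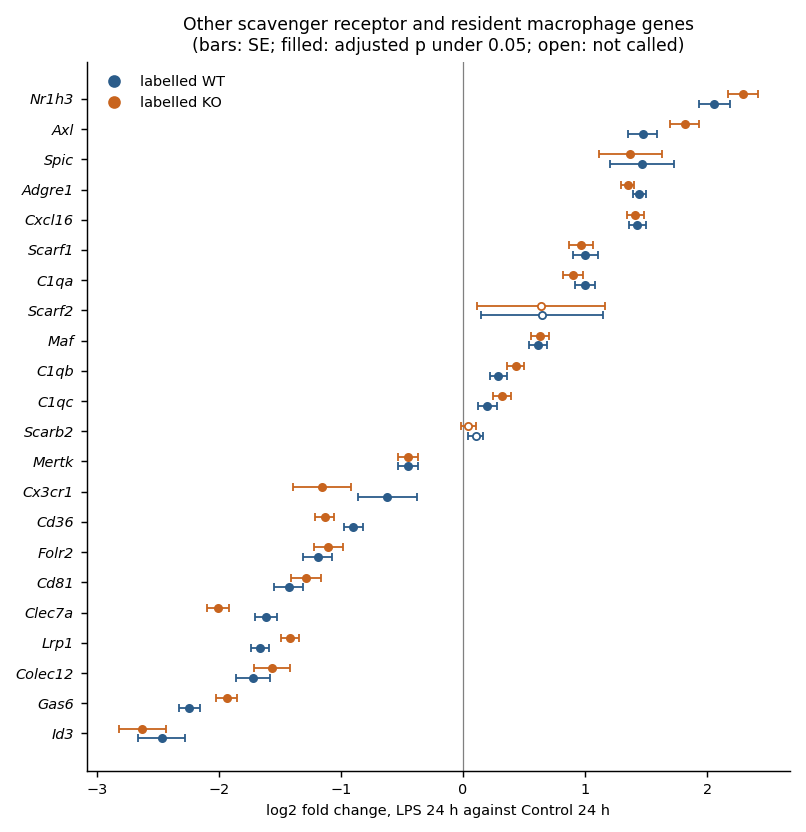
Log2 fold change (horizontal axis, bars SE) at 24 h of LPS against Control for 22 genes of both further lists, WT in blue and KO in orange; filled points have an adjusted p under 0.05, and Olr1, Stab2 and Vsig4, with a group mean under 1.05 CPM, are left out. Nr1h3 stands highest at 2.06 in WT and Id3 lowest at -2.47.

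Patterns over the 14 group means were compared by Pearson's r of log2 CPM, as a description over points that share libraries and treatments. Mrc1 and Stab1 ran together most closely among the members (r = 0.982), followed by Stab1 and Fcrls (0.934) and Mrc1 and Cd68 (0.91). Siglec1 ran against Scarb1 (-0.946), and Marco against Stab1 (-0.926) and Mrc1 (-0.901). Beyond the members, the genes most like Mrc1 were Timp2 (0.993), Selenop (0.99) and Slc9a9 (0.988). Those most like Stab1 were Slc9a9 (0.993), Hpse (0.991) and Gas6 (0.988), the last of which is also in the list of resident macrophage genes.

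The genes most like Siglec1 were Ifitm3 (0.978), Lgals3bp (0.977) and Gvin1 (0.976). Those most like Marco were Tmsb4x (0.98), Mrps10 (0.978) and Faf2 (0.96), and those most like Msr1 were Lims1 (0.967), Cyfip1 (0.963) and Mmp14 (0.945). Cd68 was nearest to Ctsb (0.971), Lgals1 (0.966) and Rpl10 (0.965), and Scarb1 to Hpgd (0.98), Shc4 (0.979) and Slc36a2 (0.978). Fcrls was nearest to Oxct1 (0.971), Atp8a1 (0.949) and Camk1 (0.946). Cd5l had the least close neighbours, Nipsnap2 (0.9), Unc5a (0.889) and Cd300ld3 (0.888). Cd163 was nearest to Rps23 (0.953), Rps2 (0.942) and Rps19 (0.942), and its low counts limit that reading.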

How the data were processed

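The authors sequenced stranded, ribodepleted total RNA libraries in paired ends, trimmed reads with fastp 0.19.11, aligned them to mm10 with STAR 2.7.3a and deposited raw counts per gene. The annotation release and the strand setting of the counting are not given in the sources used here. All columns matched a group (0 did not), and library numbers 1 to 3 follow column order and pair nothing. Whether libraries of a group came from separate animals or cultures is not stated, so p-values measure the spread between these libraries only. Over 42 pairs of libraries of a group, the chi-square per degree of freedom was 1.93 to 9.32 (over genes that averaged 10 counts or more), so none matched within sampling noise. Of 37310 identifiers, 32620 had a symbol in the GENCODE annotation of GRCm38.

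Counts were filtered with filterByExpr, scaled by TMM and fitted in edgeR 4.0.16 (R 4.3.3) with 1 mean per group over 42 libraries. Contrasts were tested two-sided with the quasi-likelihood F test, adjusted by Benjamini-Hochberg over 11624 genes, and called at an adjusted p under 0.05. "Rose" and "fell" are used of called genes. Tests covered 8 treatment and 2 Control time comparisons, 2 differences of the late and the early LPS effect and 4 interactions. The 7 genotype comparisons were not tested. Patterns were compared on log2 CPM (prior count 2). Per kilobase values used the union of exons.

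The members, the further lists and the motifs were chosen with earlier results of these data known. All members were described. From each further list at most 3 genes per direction and comparison were named, those called with the largest change and averaging 1 CPM or more. For each member the 3 genes of highest r were named. The core GAGGAA was added after the data had been seen. Alternatives were DESeq2 1.42.0 with its Wald test, RLE size factors, no filter beyond 1 count, a separate fit for each comparison with its own libraries, and leaving out each library, and, added after the data had been seen, a fit without Control 0 h and time contrasts within a label. The scripts were tested on simulated data. Promoter sequences came from RefSeq on GRCm38.p6. Msr1, Siglec1 and Scarb1 were not matched. The values of 1 gene of the further lists are not reported here.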

Additional observations from a re-analysis of the deposited data

Results flagged for a closer look

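The LPS effect at 24 h differed from that at 2 h for 9 members in WT and 7 in KO by a test of the difference itself (edgeR quasi-likelihood F test, adjusted p under 0.05). Of all genes, 14.5% were higher and 18.1% lower in WT, and 14.3% were higher and 19% lower in KO. The values on the log2 scale in WT were 3.17 for Siglec1, 1.07 for Marco, -2.37 for Mrc1, -2.04 for Cd163, -1.78 for Cd5l, -1.22 for Scarb1, -1.0 for Stab1, -0.64 for Fcrls and -0.30 for Cd68. In KO they were 2.94 for Siglec1, 1.44 for Marco, -2.44 for Mrc1, -1.24 for Scarb1, -1.16 for Cd5l, -1.14 for Stab1 and -0.45 for Fcrls. The WT calls of Cd163 and Cd68 ended when single libraries were left out.

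For 4 members every KO library lay above every WT library in one condition and below every WT library in another, and the difference between these conditions was not tested. Marco had a log2 fold change of KO against WT of -1.0 in Control at 0 h, 0.27 in Control at 2 h and -0.19 under LPS at 24 h. Siglec1 had 0.35 in Control at 0 h, -0.70 in Control at 2 h, -0.37 under palmitate at 2 h, -0.19 in Control at 24 h and 0.08 under LPS at 24 h. Msr1 had -0.19 in Control at 0 h and 0.18 in Control at 2 h. Cd68 had -0.47 in Control at 0 h, 0.05 in Control at 2 h and -0.17 under palmitate at 24 h. With 3 libraries in each group, 28% of all genes did not overlap between the labels in Control at 0 h and 16.9% in Control at 2 h. These shares count either direction within a condition. The share of all genes that change sides between conditions is not given, so the count of 4 members has no background here.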

How the results depend on the processing

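No paired analysis was possible because the columns of the count table carry no replicate numbers. The alternatives were compared over the 70 values of single members that were called under at least 1 setting. RLE scaling kept direction and side of the threshold in 69 and DESeq2 in 66. No filter beyond 1 count kept 65, and a separate fit for each comparison kept 62. Leaving out 1 library kept 563 of 618, with 44 losing the call, 7 gaining it and 4 changing sign. With a separate fit for each comparison, 6 members instead of 3 were called for LPS at 2 h in WT, 2 instead of 1 for palmitate at 2 h in WT and 5 instead of 2 for palmitate at 24 h in KO. Without the filter, 2 were called for palmitate at 2 h in WT, and 0 with DESeq2. Leaving out single libraries gave 0 to 1 called members for palmitate at 2 h in WT, 1 to 3 at 24 h in WT, 1 to 2 at 24 h in KO and 0 to 3 for Control at 2 h against 0 h. For that last comparison, among members other than Marco, Cd5l and Siglec1, WT libraries alone called Cd68, and KO libraries alone called Msr1 and Mrc1. Of all genes, 8.41% rose and 5.85% fell in WT, and 6.5% rose and 5.59% fell in KO. The sign of the comparison changed in WT for Marco (-0.50), Msr1 (-0.058) and Mrc1 (-0.19) and in KO for Siglec1 (-0.51) and Cd68 (0.19). Siglec1, at 0.02 over both labels, ranged from -0.056 to 0.075 when single libraries were left out and was below 0 without WT Control 0 h library 3, KO Control 0 h library 2, WT Control 2 h library 2 or KO Control 2 h library 1. The cause was not tested. A fit without Control 0 h kept 54 of 55. Counting error limits Cd163 most, and depth limited no other member, since each had at least 237 counts in every library.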
